A study of Mus musculus with 9 samples.

Results

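The Ly6/uPAR genes described here are 2010109I03Rik, Lypd8, Ly6e, Ly6d, Ly6c1 and Ly6c2, 6 of the 31685 genes with a value in jejunal RNA of mice after total abdominal irradiation (TAI). They were picked by name from this family, with their FPKM in these 9 mice already known, so their differences between groups are given as a description and carry no test. FPKM counts the fragments of a gene relative to gene length and library size, so that levels of different genes can be set side by side. Of the 38 family genes with a value, 16 passed the expression filter (3 or more mice with an FPKM of 1 or more), the 6 described genes among them.

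All mice were wild-type C57BL/6J males of 6 to 8 weeks, and jejunum was taken on day 3. The control group (n = 3) had no treatment, the TAI group (n = 3) was given a single X-ray dose of 12 Gy to the abdomen and PBS, and the TAI/IVIg group (n = 3) was given the same dose and 500 mg/kg of intravenous immunoglobulin (IVIg), a preparation of pooled human IgG, within 1 hour, repeated every 3 days. All 9 libraries carry the same batch label, and no group was given IVIg without irradiation, so the effect of IVIg on unirradiated jejunum cannot be read from them. The libraries held 16284386 to 18244535 reads, as recovered from the steps between FPKM values. The tissue is labelled as epithelial, and Epcam, an adhesion protein of epithelial cells, stood at 870 to 1044 FPKM in the control mice. The libraries also held RNA of other cells, since the smooth muscle actin Acta2 had a mean of 221 FPKM and the plasma cell gene Jchain a mean of 159 FPKM in the control group. The B cell gene Cd79a ran from 1.48 to 142 FPKM among the 3 control mice. In such bulk samples, fewer cells of a type and less RNA per cell cannot be told apart.

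Proteins of this family carry the LU domain, a compact fold held together by disulfide bonds between conserved cysteines, and most are tied to the outer cell membrane by a glycosylphosphatidylinositol (GPI) lipid anchor. Lypd8 is a heavily glycosylated protein of intestinal surface cells that is shed into the lumen of the colon and keeps flagellated bacteria off the mucosa. Ly6e is an interferon-inducible protein that affects the entry of several viruses, Ly6c1 and Ly6c2 together form the Ly6C antigen of monocytes, T cells and endothelium, and Ly6d marks stratified epithelia and early lymphoid cells. Ly6a, a relative that is not among the 6 but is used for comparison, encodes the stem cell antigen Sca-1. 2010109I03Rik is listed in RefSeq as Ly6m.

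In the GENCODE M21 annotation of the mouse genome (GRCm38), 5 of the 6 genes lie within 349.9 kb of chromosome 15, in the order Ly6d (chr15:74762056-74763620, minus strand), 2010109I03Rik (chr15:74876987-74897021, minus strand), Ly6e (chr15:74955051-74959905, plus strand), Ly6c1 (chr15:75044018-75048830, minus strand) and Ly6c2 (chr15:75108158-75111970, minus strand). Lypd8 lies apart from them (chr11:58379043-58390728, plus strand). No exon of another annotated gene overlaps any of the 6. The span of 2010109I03Rik includes a long non-coding isoform, and its value covers all isoforms of the gene.

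The coding sequence of 2010109I03Rik is shown because its values went the opposite way to the rest and the symbol used here carries no family name. It is 336 bases long and encodes 111 residues, 11 of them cysteines. The stretch from coding base 67 to coding base 315 of the GENCODE transcript, with each cysteine codon in capitals, reads as follows.
2010109I03Rik: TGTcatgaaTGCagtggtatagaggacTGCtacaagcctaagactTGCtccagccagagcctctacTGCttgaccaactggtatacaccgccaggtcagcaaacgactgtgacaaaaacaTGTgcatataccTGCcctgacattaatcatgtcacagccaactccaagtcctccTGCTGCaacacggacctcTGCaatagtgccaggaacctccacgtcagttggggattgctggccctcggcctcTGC
This stretch of 249 bases was cut to run from the first to the last of the 11 cysteine codons. The coding sequences of the other 5 genes hold 10 (Ly6e), 11 (Ly6d), 12 (Ly6c1), 12 (Ly6c2) and 18 (Lypd8) cysteine codons. That of Lypd8 is the longest, with 768 bases, and those of Ly6e, Ly6d, Ly6c1 and Ly6c2 have 411, 384, 396 and 396 bases. Aligned over its whole length, the coding sequence of 2010109I03Rik was 45.9% identical to that of Ly6e and 29.9% to that of Lypd8. It was 49.2% identical to that of Ly6c1, 50.3% to Ly6c2 and 50.6% to Ly6d. The same alignment gave 45.9% for the 250 bases before the starts of Ly6c1 and Lypd8, which lie on different chromosomes. Identities of this size are therefore not read as a measure of kinship. No stretch of 100 bases of the 2010109I03Rik transcript occurs in a transcript of another gene, while 1.58% of its stretches of 50 bases do.

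Ly6c1 and Ly6c2 are a different case, and their sequences are shown because reads of the pair can be hard to assign. Their coding sequences differ at 9 of 396 bases (97.7% identical), with an identical run of 188 bases. The first 270 coding bases of each, with the 7 bases that differ between them in capitals, are as follows.
Ly6c1: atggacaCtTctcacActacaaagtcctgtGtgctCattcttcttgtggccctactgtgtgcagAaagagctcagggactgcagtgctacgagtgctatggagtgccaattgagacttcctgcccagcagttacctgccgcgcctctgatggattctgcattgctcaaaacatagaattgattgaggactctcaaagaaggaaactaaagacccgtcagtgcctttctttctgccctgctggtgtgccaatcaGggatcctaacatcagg
Ly6c2: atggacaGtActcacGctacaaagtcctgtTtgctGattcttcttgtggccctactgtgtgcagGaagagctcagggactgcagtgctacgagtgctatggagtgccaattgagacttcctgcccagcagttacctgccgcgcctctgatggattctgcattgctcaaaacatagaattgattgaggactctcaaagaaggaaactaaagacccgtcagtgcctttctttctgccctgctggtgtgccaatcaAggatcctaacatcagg
Of the windows of 50 bases along the main transcript, 36.7% of those of Ly6c1 and 33.0% of those of Ly6c2 also occur in a transcript of another gene. With windows of 100 bases these shares were 15.3% and 15.8%. The split of reads between Ly6c1 and Ly6c2 is therefore uncertain, and their sum is given beside their own values. For Lypd8, Ly6e and Ly6d, no window of either length occurred elsewhere.

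2010109I03Rik was the member with higher values after irradiation. It stood at 13.3, 19.7 and 12.2 FPKM in the 3 control mice, at 696, 486 and 654 FPKM in the TAI mice, and at 967, 295 and 425 FPKM in the TAI/IVIg mice. Every irradiated mouse was far above every control mouse, and the TAI and TAI/IVIg mice overlapped. The group means were 15.1 ± 4.04 (SD, n = 3), 612 ± 111 (SD, n = 3) and 562 ± 357 (SD, n = 3) FPKM. The TAI mean was 40.7 times the control mean and the TAI/IVIg mean 37.4 times. In whole reads this gene went from 696 to 1148 in control libraries to 16549 to 57439 in irradiated ones. Its log2 fold change in TAI against control, 5.27 ± 0.39 (SE) on the log2(FPKM + 1) scale, was the 2nd highest of 13056 genes. Within a library it went from rank 2686 to 4221 of all genes in the control mice to rank 53 to 85 in the TAI mice and rank 39 to 139 in the TAI/IVIg mice.

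Lypd8 was the most abundant of the 6 genes in the control jejunum and had the lowest log2 fold change of them in TAI mice. Its values were 8041, 8284 and 6348 FPKM in the control mice, 768, 1031 and 374 FPKM in the TAI mice, and 349, 414 and 153 FPKM in the TAI/IVIg mice. In the control libraries only 2 or 3 genes had a higher FPKM. All irradiated mice were below all control mice, and TAI/IVIg mouse 2 was above TAI mouse 3, so the irradiated groups overlapped. The mean was 7558 ± 1055 (SD, n = 3) FPKM in the control group, 724 ± 330 (SD, n = 3) in the TAI group and 305 ± 136 (SD, n = 3) in the TAI/IVIg group. The control mean was 10.4 times the TAI mean and 24.8 times the TAI/IVIg mean. The log2 fold change of -3.49 ± 0.44 (SE) in TAI against control was the 8th lowest of all genes tested.

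Ly6e, the interferon-inducible member, had 246, 284 and 313 FPKM in the control mice, 54.4, 74.9 and 54.1 FPKM in the TAI mice, and 44.2, 37.4 and 12.2 FPKM in the TAI/IVIg mice. The 3 groups did not overlap, and TAI/IVIg mouse 3 stood well below its group. The means were 281 ± 33.5, 61.1 ± 11.9 and 31.3 ± 16.9 FPKM (SD, n = 3 each), and the control mean was 4.59 times the TAI mean.

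Ly6d, known from stratified epithelia, differed most among untreated mice. Its values were 458, 115 and 324 FPKM in the control mice, a 3.98-fold range, against 51.5, 44.7 and 51.6 FPKM in the TAI mice and 15.1, 38.0 and 25.3 FPKM in the TAI/IVIg mice. The 3 groups again did not overlap. The means were 299 ± 173, 49.3 ± 3.91 and 26.2 ± 11.5 FPKM (SD, n = 3 each), and the control mean was 6.07 times the TAI mean. Leaving out control mouse 2 took the log2 fold change in TAI against control from -2.37 to -2.94, and leaving out control mouse 1 took it to -1.95.

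Ly6c1 had 78.3, 46.6 and 68.4 FPKM in the control mice, 22.1, 28.7 and 20.8 FPKM in the TAI mice, and 15.4, 13.1 and 9.60 FPKM in the TAI/IVIg mice. Ly6c2 had 9.47, 5.91 and 12.3 FPKM in the control mice, 1.09, 2.53 and 1.76 FPKM in the TAI mice, and 0.731, 0.601 and 0.522 FPKM in the TAI/IVIg mice. For both genes all control mice were above all TAI mice, and all TAI mice above all TAI/IVIg mice. The control mean was 2.70 times the TAI mean for Ly6c1 and 5.15 times for Ly6c2. Ly6c2 rested on few reads after irradiation, 51 to 113 in TAI libraries and 24 to 36 in TAI/IVIg libraries, against 286 to 584 in control libraries. Its fold change is therefore the most dependent on the pseudocount, and with a pseudocount of 0.1 its log2 fold change in TAI against control was -2.31 in place of -1.85.

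**Figure D1:**
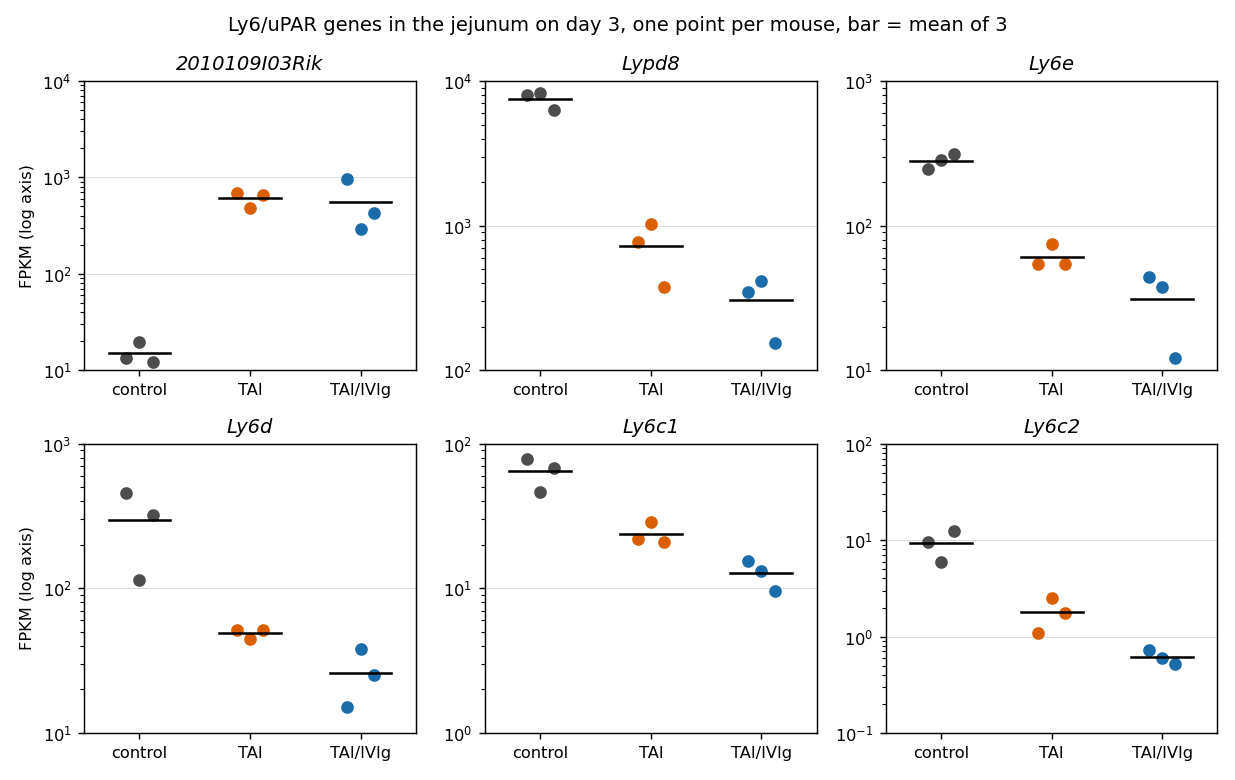
FPKM of the 6 Ly6/uPAR genes (vertical axis, log scale, a different range in each panel) by group, with a point for each mouse and a bar at the mean of 3. 2010109I03Rik sits at 12.2 to 19.7 FPKM in control mice and at 295 or more in every irradiated mouse, and the other 5 genes step down from control to TAI to TAI/IVIg, with overlap between the irradiated groups for Lypd8.

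The summed reads of Ly6c1 and Ly6c2 do not depend on how reads were split within this pair. Both genes also share windows of 50 bases with Ly6a, so the sum may still depend on how those reads were assigned. They came to 2734, 1666 and 2569 in the control libraries, 685, 896 and 723 in the TAI libraries and 499, 402 and 294 in the TAI/IVIg libraries. In reads scaled to library size (RPM) the sum was 133 ± 34.1, 44.9 ± 8.79 and 23.0 ± 5.14 (SD, n = 3 each), so the control mean was 2.97 times the TAI mean, and the TAI mean 1.95 times the TAI/IVIg mean. Of these reads, 16.5% to 22.7% were assigned to Ly6c2 in control libraries, 7.45% to 12.6% in TAI libraries and 6.97% to 8.16% in TAI/IVIg libraries. The FPKM ratio of Ly6c1 to Ly6c2 was correspondingly 5.55 to 8.27 in control mice, 11.3 to 20.3 in TAI mice and 18.4 to 21.8 in TAI/IVIg mice. Ly6c2 thus had a smaller share of the pair in every irradiated mouse than in any control mouse.

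The order of the 6 genes by level changed with irradiation. In control mice Lypd8 was highest, Ly6d and Ly6e overlapped below it, Ly6c1 came next, and 2010109I03Rik (12.2 to 19.7 FPKM) overlapped with Ly6c2 (5.91 to 12.3 FPKM) at the lower end. In TAI mice Lypd8 (374 to 1031 FPKM) and 2010109I03Rik (486 to 696 FPKM) overlapped at the top, followed by Ly6e, Ly6d, Ly6c1 and Ly6c2, which did not overlap with their neighbours. In TAI/IVIg mice 2010109I03Rik and Lypd8 again overlapped at the top, Ly6e, Ly6d and Ly6c1 overlapped with each other, and Ly6c2 was lowest.

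TAI against control compared irradiated with untreated jejunum. Of the 6 genes, 1 was higher in every TAI mouse than in every control mouse, as were 15.1% of the 13056 genes tested, and 5 were lower in every TAI mouse, as were 38.0% of all genes. Because the genes were chosen on these values, nothing is read from those counts. The log2 fold changes of Ly6e, Ly6d, Ly6c1 and Ly6c2 were -2.19 ± 0.40, -2.37 ± 0.48, -1.38 ± 0.23 and -1.85 ± 0.26 (SE), against a median of -0.24 over all genes. Most of the library was thus slightly lower on this scale, and the middle of the distribution depended on the scaling. With the library medians set equal, the 6 values were 5.55 for 2010109I03Rik, -3.20 for Lypd8, -1.90 for Ly6e, -2.08 for Ly6d, -1.09 for Ly6c1 and -1.57 for Ly6c2, so that each gene kept its direction.

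TAI/IVIg against TAI asked what IVIg changed in irradiated jejunum. The log2 fold changes were -1.24 ± 0.44 (SE) for Lypd8, -1.11 ± 0.40 for Ly6e, -0.98 ± 0.48 for Ly6d, -0.87 ± 0.23 for Ly6c1, -0.76 ± 0.26 for Ly6c2 and -0.29 ± 0.39 for 2010109I03Rik, with a median of -0.13 over all genes. Ly6e, Ly6d, Ly6c1 and Ly6c2 were lower in every TAI/IVIg mouse than in every TAI mouse, as were 16.1% of all genes, and none of the 6 was higher in every one, against 3.09% of all genes. No gene of the table was called in this comparison (0.00% at an adjusted p under 0.05 in limma), and 12.9% of the genes had an unadjusted p under 0.05. The value of 2010109I03Rik turned to 0.084 when TAI/IVIg mouse 2 was left out, so it has no direction here. Leaving out TAI/IVIg mouse 3 took Ly6e to -0.56 and Lypd8 to -0.81. With the library medians set equal the values ran from -1.04 for Lypd8 to -0.09 for 2010109I03Rik.

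TAI/IVIg against control shares the control mice with the first comparison and is not independent of it. The log2 fold changes were 4.98 ± 0.39 (SE) for 2010109I03Rik, -4.74 ± 0.44 for Lypd8, -3.34 ± 0.48 for Ly6d, -3.30 ± 0.40 for Ly6e, -2.61 ± 0.26 for Ly6c2 and -2.25 ± 0.23 for Ly6c1, with a median of -0.39 over all genes. 2010109I03Rik was higher in every TAI/IVIg mouse than in every control mouse, as were 11.5% of all genes, and the other 5 were lower, as were 44.3%. The group means of Lypd8, Ly6e, Ly6d, Ly6c1 and Ly6c2 were further from control in TAI/IVIg mice than in TAI mice, although the mice of these groups overlapped for Lypd8.

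**Figure D2:**
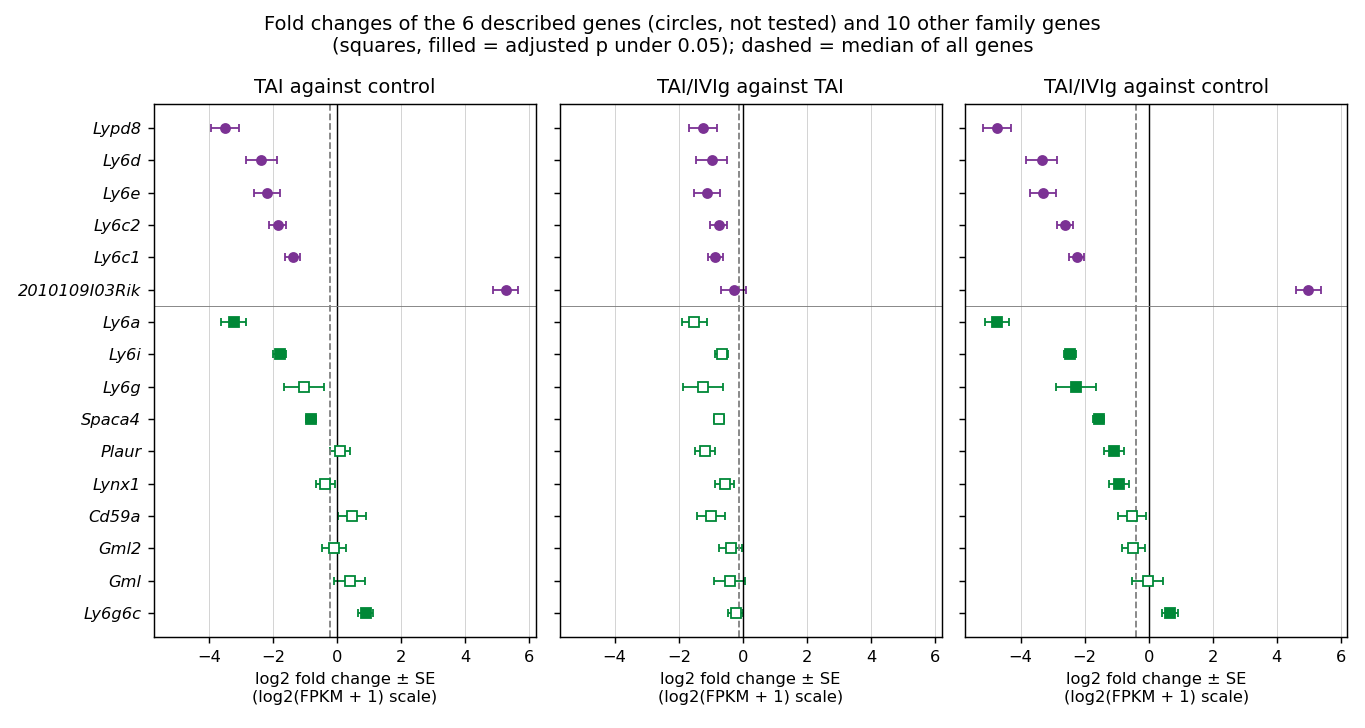
log2 fold change on the log2(FPKM + 1) scale (horizontal axis) with its SE for the 6 described genes (circles, not tested) and the 10 other family genes that passed the filter (squares, filled where the adjusted p was under 0.05), in each of the 3 comparisons. The dashed line marks the median of all genes. 2010109I03Rik lies at 5.27 in TAI against control, Lypd8 at -3.49 and Ly6a at -3.22, and no square is filled in TAI/IVIg against TAI.

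The make-up of the whole family changed with these genes. The summed FPKM of the 38 family genes was 8540 to 10402 in control mice, 1416 to 1965 in TAI mice and 746 to 1566 in TAI/IVIg mice. Lypd8 made up 74.3% to 82.5% of it in control mice, 26.4% to 52.5% in TAI mice and 20.6% to 44.4% in TAI/IVIg mice. 2010109I03Rik made up 0.128% to 0.196%, 24.8% to 46.2% and 31.6% to 61.7% in the same groups. The FPKM of Lypd8 was 421 to 604 times that of 2010109I03Rik in control mice, and 0.572 to 2.12 times in TAI mice. Ly6a was the next largest in control mice, with 12.1% to 15.6%, and held 6.84% to 9.97% in TAI mice.

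**Figure D3:**
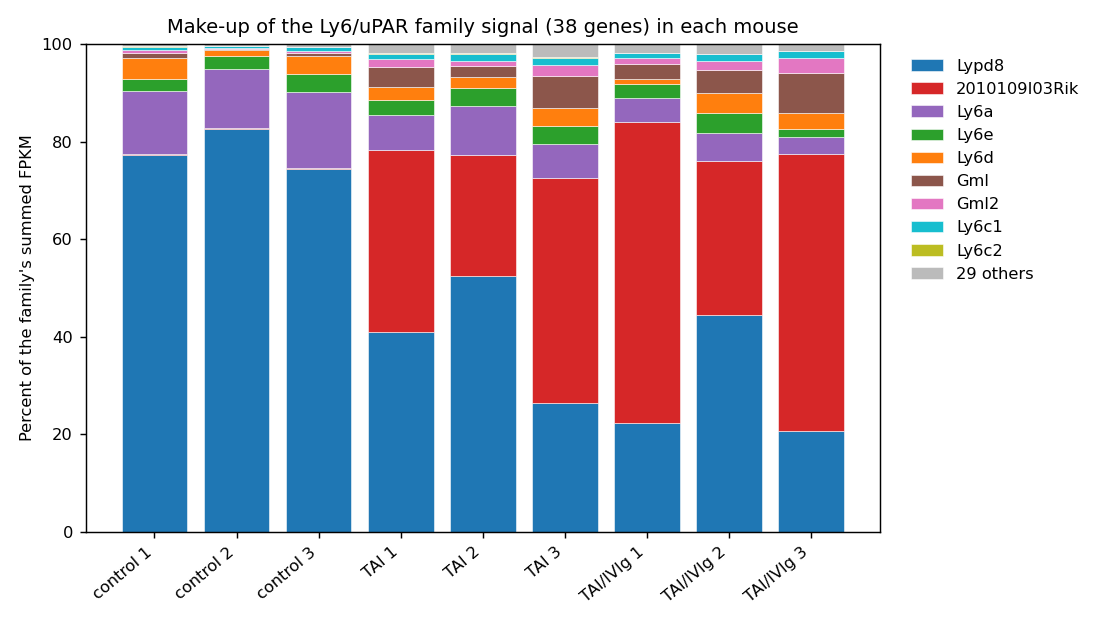
Share of each gene in the summed FPKM of 38 Ly6/uPAR genes (vertical axis, percent) for each of the 9 mice (horizontal axis). Lypd8 fills 74.3% to 82.5% of the bar in control mice, and 2010109I03Rik, under 0.2% there, fills 24.8% to 61.7% in irradiated mice.

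The other family genes were tested in the fit over all genes, but their list too was made with results of these data known. Of 45 symbols looked for, 32 had a value and 10 passed the filter. In TAI against control 1 of the 10 was called higher (against 8.81% of all genes) and 3 lower (against 26.1%), with a median log2 fold change of -0.23 that equals the median of all genes to within 0.01. Ly6g6c rose, and Ly6a, Ly6i and Spaca4 fell. With the library medians set equal, 1 was higher and 2 were lower (16.5% and 14.0% of all genes). The calls of all genes went from 25.2% higher to 54.2% higher. In TAI/IVIg against TAI 0 of the 10 were called, and all 10 fold changes were below 0. In TAI/IVIg against control 1 was called higher (against 9.06%) and 6 lower (against 37.4%), namely Ly6g6c, and Ly6a, Ly6g, Ly6i, Lynx1, Plaur and Spaca4. This last count of 7 was 3 without control mouse 3, 3 without TAI/IVIg mouse 3 and 4 with the library medians set equal.

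Ly6a, the gene of Sca-1, was the closest to Lypd8 in size and direction. Its mean was 1297 ± 72.7 FPKM in the control group, 144 ± 49.8 in the TAI group and 52.5 ± 26.5 in the TAI/IVIg group (SD, n = 3 each). Its log2 fold change was -3.22 ± 0.39 (SE, adjusted p = 0.000987 in limma) in TAI against control and -4.74 ± 0.39 (adjusted p = 0.000153) in TAI/IVIg against control. It was lower in every TAI/IVIg mouse than in every TAI mouse, with a log2 fold change of -1.51 ± 0.39 that was not called (adjusted p = 0.353). Ly6i, a close relative of Ly6a, fell from 4.93 ± 1.25 to 0.695 ± 0.263 FPKM in TAI mice (adjusted p = 0.000726) and stood at 0.0679 ± 0.118 FPKM in TAI/IVIg mice, on 0 to 4 reads a library.

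The remaining family genes were low or were not called in TAI against control. Spaca4, a sperm membrane protein, fell from 5.75 ± 1.01 to 2.80 ± 0.212 FPKM in TAI mice (adjusted p = 0.00642), a call that was lost with quantile normalization and with the library medians set equal (highest adjusted p = 0.0748). Ly6g6c rose from 0.223 ± 0.103 to 1.32 ± 0.675 FPKM (adjusted p = 0.0197) on 52 reads or fewer a library, and its call was lost without control mouse 3, TAI mouse 1 or TAI mouse 3 (highest adjusted p = 0.0586). Its exons overlap those of Mpig6b, so its reads may not all be its own. Plaur, the urokinase receptor that gives the family its second name, had 6.94 ± 1.53 and 7.54 ± 2.18 FPKM in control and TAI mice and 1.46 to 4.44 FPKM in TAI/IVIg mice, and was called lower in TAI/IVIg against control (log2 fold change -1.09 ± 0.31, adjusted p = 0.0186), a call that was lost with quantile normalization, with the library medians set equal, without control mouse 3 and without TAI/IVIg mouse 3 (highest adjusted p = 0.144). Cd59a, an inhibitor of complement, had 10.8 ± 0.914, 15.6 ± 3.67 and 8.67 ± 6.37 FPKM and was not called. It was higher in every TAI mouse than in every control mouse, as were 15.1% of all genes. Gml and Gml2, which flank 2010109I03Rik on the side of Ly6d, were not called in any comparison, with means of 62.1 ± 42.5 and 71.4 ± 24.0 FPKM for Gml and 31.7 ± 18.5 and 27.0 ± 6.47 FPKM for Gml2 in control and TAI mice. Of their windows of 50 bases, 18.6% and 25.0% are shared, so their split is uncertain too.

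Neighbours on the chromosome differed in direction. In the order of the 11 family genes of chromosome 15 that passed the filter, Gml2 comes directly before 2010109I03Rik and Ly6e directly after it, 58.0 kb away. The log2 fold changes of these 3 neighbours in TAI against control were -0.10 ± 0.37, 5.27 ± 0.39 and -2.19 ± 0.40 (SE). From Ly6e onward Ly6i, Ly6a, Ly6c1 and Ly6c2 all lay between -3.22 and -1.38, and Ly6g at the end stood at -1.04 ± 0.63 and was not called.

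**Figure D4:**
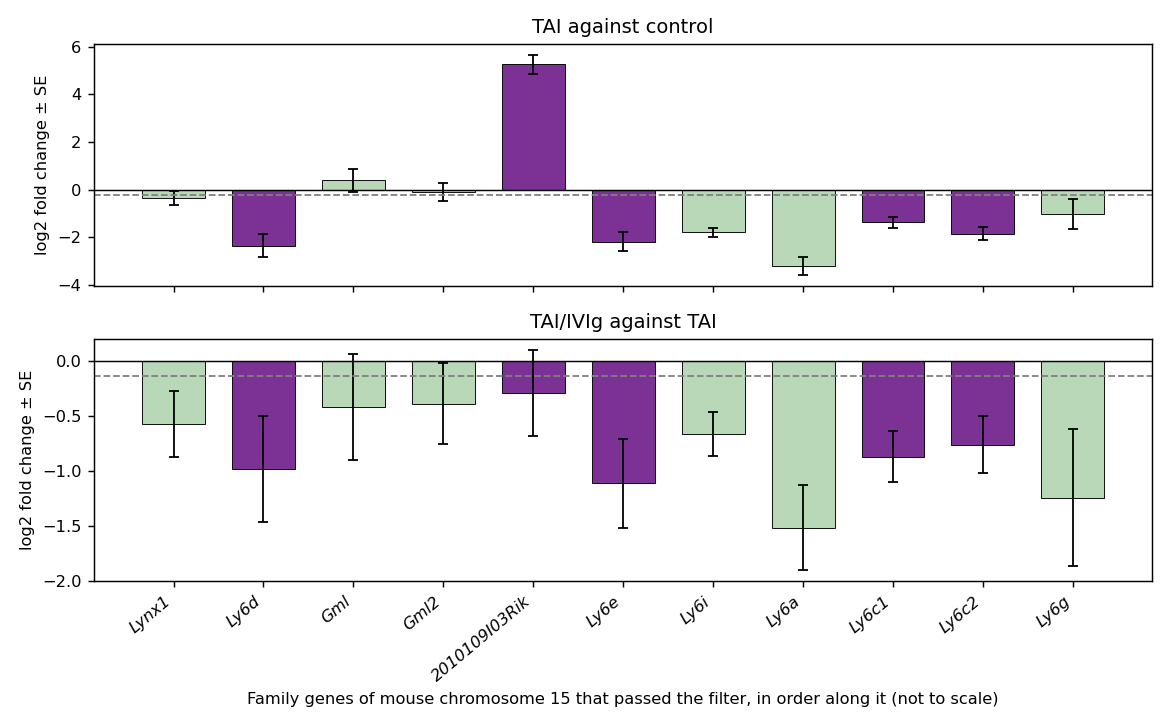
log2 fold change with its SE (vertical axis) of the 11 family genes of chromosome 15 that passed the filter, in their order along the chromosome and not to scale, in TAI against control (top) and TAI/IVIg against TAI (bottom). Dark bars are described genes, light bars other family genes, and the dashed line is the median of all genes. 2010109I03Rik stands at 5.27 between Gml2 at -0.10 and Ly6e at -2.19 in the upper panel.

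Promoter sequences are shown for the 3 described genes with lower values that are in the RefSeq table used (GRCm38.p6), namely Lypd8 (chr11:58378782-58379031, plus strand), Ly6c1 (chr15:75048838-75049087, minus strand) and Ly6c2 (chr15:75111972-75112221, minus strand). Ly6e, Ly6d and 2010109I03Rik have no entry in it. Each line gives the 250 bases before the start, with motif matches in capitals.
Lypd8: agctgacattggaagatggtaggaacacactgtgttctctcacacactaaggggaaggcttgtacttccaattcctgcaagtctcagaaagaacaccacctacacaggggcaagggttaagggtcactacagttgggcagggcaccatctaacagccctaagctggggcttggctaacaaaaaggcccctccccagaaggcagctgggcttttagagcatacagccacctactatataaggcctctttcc
Ly6c1: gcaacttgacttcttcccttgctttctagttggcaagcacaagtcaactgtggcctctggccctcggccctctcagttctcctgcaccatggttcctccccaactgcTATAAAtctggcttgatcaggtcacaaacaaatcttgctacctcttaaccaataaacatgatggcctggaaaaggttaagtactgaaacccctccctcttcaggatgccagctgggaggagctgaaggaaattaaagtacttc
Ly6c2: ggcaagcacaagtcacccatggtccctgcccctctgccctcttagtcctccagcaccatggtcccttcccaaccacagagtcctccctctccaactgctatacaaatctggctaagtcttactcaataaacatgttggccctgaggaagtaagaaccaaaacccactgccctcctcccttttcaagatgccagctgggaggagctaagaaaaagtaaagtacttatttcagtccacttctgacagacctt
Windows of 300 bases were searched on both strands for GAAANNGAA (part of the interferon-stimulated response element), TTCNNNGAA (the gamma-activated sequence), TATAAA (the TATA box) and CAAAGTCCA (a site of the nuclear receptor HNF4). They occur in 8.56%, 8.30%, 13.6% and 0.47% of the 32851 windows of the table. The window of Ly6c1 held TATAAA at positions -143 to -138 from the start. The windows of Lypd8 and Ly6c2 held none of the 4, which says only that these letters are not in them.

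Lypd8, a gene of enterocytes, was lower while other enterocyte genes were higher. Of 18 enterocyte markers, 8 were called higher and 1 lower in TAI against control (8.81% and 26.1% of all genes), and 11 higher and 0 lower in TAI/IVIg against control (9.06% and 37.4% of all genes). Their summed level was 17352 to 27817 FPKM in control mice, 37571 to 58098 in TAI mice and 54259 to 58147 in TAI/IVIg mice. Alpi, the alkaline phosphatase of the brush border, rose from a mean of 162 to 441 FPKM (log2 fold change 1.47 ± 0.23, adjusted p = 0.00264), and Apoa4, an apolipoprotein of chylomicrons, from 312 to 2276 FPKM (2.91 ± 0.24, adjusted p = 0.000283). Of 10 general epithelial markers, 2 were called higher and 4 lower in TAI against control (8.81% and 26.1% of all genes). Those higher were Cldn7 and Elf3, and those lower Krt8, Krt19, Cdx2 and Cdx1. In control, TAI and TAI/IVIg mice Cldn7 had means of 318, 528 and 599 FPKM, and Krt19 of 729, 211 and 119 FPKM. Epcam had means of 983, 1344 and 1496 FPKM in the 3 groups and was not called in TAI against control (adjusted p = 0.114 in limma). The part of cell composition in the lower level of Lypd8 was not tested.

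Ly6c1 was lower in TAI mice while markers of blood endothelium, a cell type it is known from, were not. Of 15 such markers, 2 (Flt1 and Esam) were called higher and 0 lower in TAI against control (8.81% and 26.1% of all genes). Their summed level was 46.7 to 86.4 FPKM in control mice and 73.2 to 104 in TAI mice, while Ly6c1 went from 46.6 to 78.3 down to 20.8 to 28.7 FPKM. Pecam1, a defining marker, had 7.81 ± 3.09 FPKM in control and 7.14 ± 0.650 in TAI mice. In TAI/IVIg mice the list stood at 40.4 to 63.6 FPKM, 12 of 15 markers were lower in every TAI/IVIg mouse than in every TAI mouse (16.1% of all genes), and 0 were called. Of the fibroblast markers 7 of 8, and of the smooth muscle markers 3 of 8, were lower in every TAI/IVIg mouse, against the same 16.1% of all genes. The part of these cells in the lower Ly6c1 of that group was not tested.

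For Ly6c2, monocyte genes gave calls in both directions. Of 15 monocyte and macrophage markers, 3 were called higher and 2 (Cd68 and Ccr2) lower in TAI against control (8.81% and 26.1% of all genes), and the summed level overlapped between the groups, with 232 to 410, 260 to 460 and 198 to 414 FPKM. Ccr2, the chemokine receptor of monocytes that enter tissue, fell from 1.79 ± 0.549 to 0.307 ± 0.111 FPKM (log2 fold change -1.08 ± 0.19, adjusted p = 0.00438). Csf1r, the receptor for the macrophage growth factor, had 7.90 ± 1.68 FPKM in control and 7.12 ± 0.990 in TAI mice. Of 10 T cell markers that passed the filter, 0 were called in TAI against control, and all 10 fold changes were below 0. Their list summed to 22.0 to 131 FPKM in control and 10.9 to 33.1 in TAI mice, so the groups overlapped. The part of these cells in the level of Ly6c1 and Ly6c2 was not tested.

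**Figure D5:**
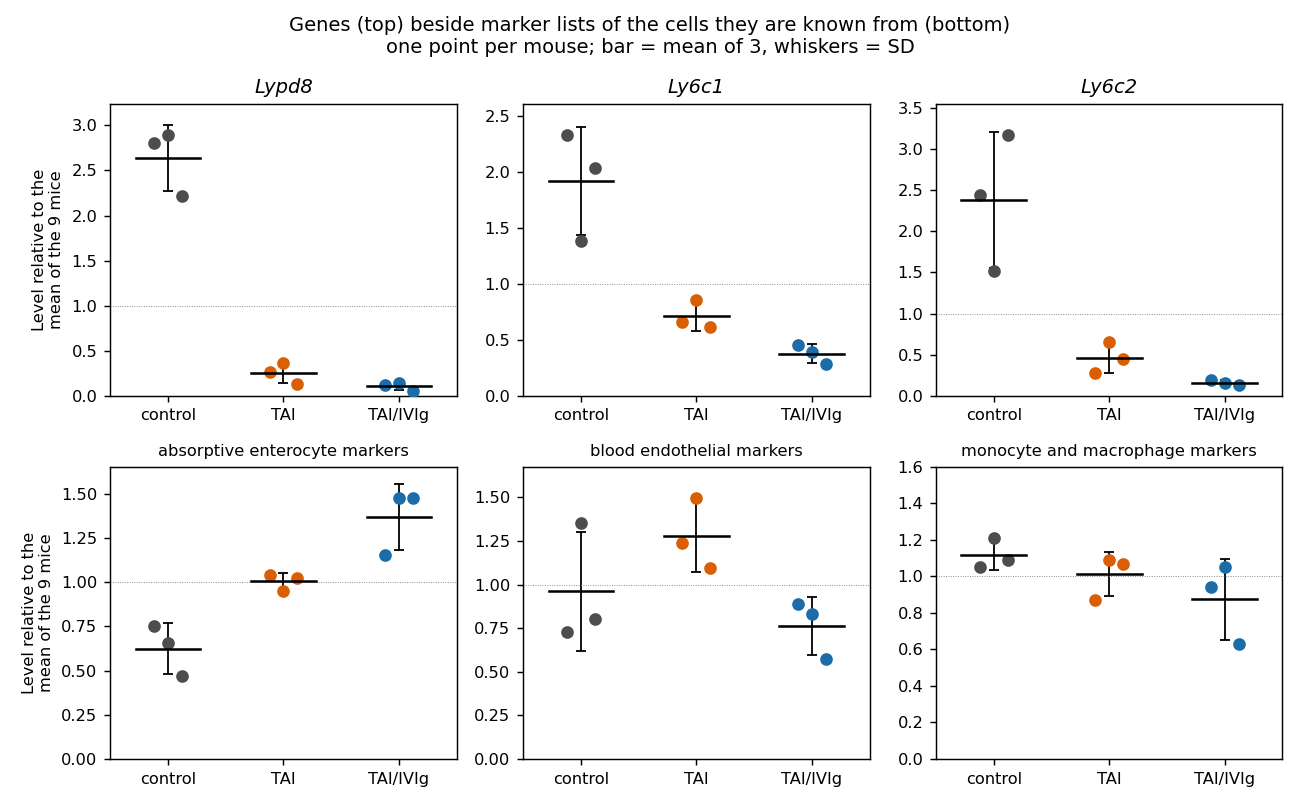
Level relative to the mean of the 9 mice (vertical axis) of Lypd8, Ly6c1 and Ly6c2 (top) and of the markers of absorptive enterocytes, blood endothelium, and monocytes and macrophages (bottom, mean over the list's tested genes), with a point for each mouse, a bar at the mean of 3 and whiskers of 1 SD. The 3 genes are lower in every TAI mouse than in every control mouse, while the enterocyte list goes from 0.470 to 0.750 in control mice to 0.953 to 1.04 in TAI mice.

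Beside the lower Ly6e, few other interferon-stimulated genes were called. Of 33 such genes, 1 (Ifi27) was called higher and 2 (Ifi44 and Bst2) lower in TAI against control (8.81% and 26.1% of all genes), and 1 higher and 6 lower in TAI/IVIg against control (9.06% and 37.4%). The summed level of the list was 3222 to 4530 FPKM in control, 2347 to 3957 in TAI and 871 to 5695 in TAI/IVIg mice, so the groups overlapped. Within the TAI/IVIg group, mouse 1 had the highest sum and the highest Ly6e (44.2 FPKM), and mouse 3 the lowest sum and the lowest Ly6e (12.2 FPKM). In the TAI group mouse 2 was highest in both and mouse 3 lowest in both, with Ly6e close to that of mouse 1 (54.1 and 54.4 FPKM). In the control group, however, mouse 1 had the highest sum and the lowest Ly6e (246 FPKM). How Ly6e relates to this list was not tested. Bst2, or tetherin, which holds budding viruses at the membrane, fell from 337 ± 18.1 to 82.6 ± 21.5 FPKM (log2 fold change -2.04 ± 0.54, adjusted p = 0.0192).

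For Ly6d, markers of stratified epithelium were nearly absent. Only 2 of the 13 listed passed the filter, 8 of the 13 were at 0 in at least 1 mouse, and the defining genes Krt5, Krt14 and Trp63 reached at most 0.503, 0.699 and 0.0392 FPKM in any mouse. The keratin gene Krt15, 1 of the 2 tested, rose from a mean of 0.270 to 4.05 FPKM in TAI against control (log2 fold change 1.86 ± 0.40, adjusted p = 0.00899), and Sprr1a, the other, was not called (-0.72 ± 0.27, adjusted p = 0.0646). The summed level of the list was 14.7 to 22.4 FPKM in control, 9.45 to 21.7 in TAI and 4.59 to 7.61 in TAI/IVIg mice, most of it Sprr1a. B cell markers summed to 68.9, 4.72 and 515 FPKM in control mice 1, 2 and 3, where Ly6d had 458, 115 and 324 FPKM, and 0 of 10 were called in TAI against control. The part of these cells in the level of Ly6d was not tested.

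Genes for making and attaching the GPI anchor were called lower in part, and the count depended on the scaling. Of 27 that passed the filter, 0 were called higher and 13 lower in TAI against control, beside 8.81% and 26.1% of all genes. In TAI/IVIg against control 1 was higher and 16 were lower, beside 9.06% and 37.4% of all genes. The median log2 fold change of the list was -0.45 in TAI against control, beside -0.24 over all genes, and -0.46 in TAI/IVIg against control, beside -0.39. Pgap2, which remodels the lipid of the anchor, fell from a mean of 6.17 to 2.06 FPKM (log2 fold change -1.23 ± 0.17, adjusted p = 0.00156). Pigs, a subunit of the transamidase that attaches the anchor, fell from 23.7 to 11.4 FPKM (-0.99 ± 0.14, adjusted p = 0.00183), and Pigt, another subunit, from 31.5 to 20.5 FPKM (-0.59 ± 0.15, adjusted p = 0.0149). In TAI/IVIg against TAI 0 of the 27 were called. With the library medians set equal, 1 was higher and 4 were lower in TAI against control, beside 16.5% and 14.0% of all genes. In TAI/IVIg against control 3 were then higher and 1 lower, beside 22.1% and 14.5% of all genes. Pigt was no longer called under that scaling. The first count of 13 was 6 without control mouse 2, 5 without control mouse 3, 3 without TAI mouse 1 and 7 without TAI mouse 2 or TAI mouse 3. The other count of 17 was 8 without control mouse 2 or TAI/IVIg mouse 1, 6 without control mouse 3 and 11 without TAI/IVIg mouse 3.

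Genes of the table whose pattern over the 9 mice was nearest to each member were found by the root mean square (RMS) difference of centred log2(FPKM + 1) values, over 13055 other genes. Nearest to 2010109I03Rik were Slc28a2, a nucleoside transporter (RMS 0.53, means of 17.8, 556 and 525 FPKM in control, TAI and TAI/IVIg mice), Ada, adenosine deaminase (0.53, means of 40.7, 1491 and 1402 FPKM), and the cytochrome P450 gene Cyp2b10 (0.59). Nearest to Lypd8 was Ly6a (0.29), ahead of Akr1c19 (0.64) and the transferrin receptor gene Tfrc (0.68), although Ly6a lies on another chromosome. Conversely, Lypd8 was the nearest of all genes to Ly6a. Nearest to Ly6e were Bst2 (0.27), Aldh1b1 (0.40) and Ifi44 (0.42). Nearest to Ly6c1 were Lpcat4 (0.14), Eif2s2 (0.23) and Gm9892 (0.24), and nearest to Ly6c2 were Ly6i (0.23), the class I gene H2-Q7 (0.29) and Ly6c1 (0.29). Nearest to Ly6d were Myl7 (0.53), Nqo1 (0.57) and Gsr (0.58). These are descriptions over 9 mice in 3 groups, in which any gene with similar group means comes out as near.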

How the data were processed

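RNA of jejunal tissue from 9 mice (3 per group) was analysed on day 3. The table deposited by the authors gives FPKM for each mouse. The submitters' processing notes name Trimmomatic, STAR, featureCounts and the build mm10 (GRCm38), without versions. Strand, annotation and read length are not given in the sources used here. All 31685 genes gave whole reads (100% of values, tolerance 0.0001), up to a common factor for 490 genes. Depth limits genes of few reads, and 0 columns were left out.

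Values of log2(FPKM + 1) of all 9 mice were modelled by group using limma 3.58.1 (R 4.3.3; moderated variances with a trend). The 13056 genes that reached 1 FPKM in 3 or more mice were tested, Benjamini-Hochberg adjustment was applied per comparison, and an adjusted p under 0.05 counted as a call. The fit was tested on simulated reads. Limma voom on the recovered reads was among the alternatives. That replicates are separate mice comes from the study's methods.

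The members and lists were chosen with earlier results of these data known. Named are all members without a test, every other family gene called or among the 5 highest, and the 3 genes nearest to each member. Other genes named were chosen after their values were seen, and the monocyte and macrophage markers called higher are not named here. What a shared replicate number means is not stated. Deviations from group means correlated at 0.241 to 0.308 for same-numbered control and TAI mice, and at -0.296 to 0.201 where TAI/IVIg was involved. Mice with different numbers reached 0.146 for control with TAI and 0.408 for control with TAI/IVIg. Whether the numbers pair any mice is therefore not settled. Sequences and positions came from GENCODE M21 and RefSeq, read with Python 3.11.15 and aligned with Biopython 1.88.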

Additional observations from a re-analysis of the deposited data

How the results depend on the processing

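With 3 mice per group, no permutation test of 3 against 3 could give a p under 0.1. The members were chosen on these values, so the size and spread of their differences are a description only. That choice may overstate their size. Of 321 recomputed fold changes of the 6 genes, 311 moved by less than the spread between mice, 9 moved by more and 1 reversed, that of 2010109I03Rik in TAI/IVIg against TAI (main value -0.29, from -0.77 without TAI/IVIg mouse 1 to 0.084 without TAI/IVIg mouse 2). The 9 belong to Ly6c2, with few reads after irradiation, and Ly6c1. For Ly6c2 in TAI/IVIg against control the value ran from -3.82 (limma voom on recovered reads) to -2.12 (library medians set equal).

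Counts of other family genes called were 4 in TAI against control (1 with a mean FPKM of at least 5, where fewer genes were tested) and 7 in TAI/IVIg against control (2 with a mean FPKM of at least 5, 4 with library medians set equal). Counts of GPI anchor genes called were 13 in TAI against control (7 with no filter, 5 with library medians set equal, 6 with quantile normalization) and 17 in TAI/IVIg against control (10 with no filter, 10 with a mean FPKM of at least 5, 4 with library medians set equal, 6 with quantile normalization, 8 with only the 6 mice compared). Apart from the scalings and the filter on the mean, the cause was not tested. With each mouse left out in turn the 4 counts ran from 3 to 5, 3 to 7, 3 to 13 and 6 to 17. In TAI/IVIg against TAI both counts were 0 under every alternative.

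With a replicate block, the counts were 4 and 6 for the family and 13 and 18 for the GPI genes in the same order, and the call of Ly6g6c in TAI/IVIg against control was lost. Whether the replicate numbers pair any mice is not known.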
